A study of Rattus norvegicus with 4 samples.

Results

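Granins and the enzymes that process prohormones form the cargo and the tool set of dense-core secretory granules. They were examined here through 10 rat genes, namely Chga, Chgb, Scg2, Scg3, Scg5, Pcsk1, Pcsk2, Pcsk1n, Cpe and Pam. Probes were taken as theirs where the RefSeq accession of the probe in the scanner files belongs to one of these genes. All 10 had a probe, and they had 16 probes in all, of 40923 probes used, of which 10746 carried a gene symbol.

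RNA came from PC12, a rat cell line established from a pheochromocytoma, the tumour of the adrenal medulla. The line is known to have no functional MAX, the partner through which MYC proteins bind DNA. The MAX vector group was a PC12 line transfected with a plasmid coding for MAX, and the empty vector group was a PC12 line transfected with the plasmid lacking it. Both lines had been nucleofected and then selected with E418, as the labels spell it. Each group was 1 transfected line, sampled at passages 8 and 13, with 2 one-colour arrays per group. The labels do not say which replicate number stands for which passage, and the promoter and species of the MAX sequence in the plasmid are not given in the sources used here. The p-values therefore rest on the spread between the 2 arrays of each group, with no independent transfection behind them. That spread holds passage and, in the MAX vector group, also slide, since MAX vector replicate 1 was on a slide of its own.

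Granins are acidic, calcium-binding proteins that aggregate in the trans-Golgi network and are packed into dense-core granules, where they are also cut into peptides. Inside the granule, prohormone convertases cleave precursors at pairs of basic residues, carboxypeptidase E removes the basic residues left at the new C terminus, and peptidylglycine alpha-amidating monooxygenase turns a C-terminal glycine into an amide. Chromaffin cells store these peptides together with catecholamines and release both by exocytosis.

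Promoter sequence from RefSeq, build GRCr8, was matched by symbol for 8 of the 10 genes, and Chga and Pcsk1 were not among them. In the 250 bases before the annotated gene start, the E-box CACGTG, to which MAX dimers are known to bind, was found on either strand in 0 of these 8 promoters, against 5.59% of 33469 rat promoters. The variant CACGCG was found in 0 of 8, against 7.14%. The looser pattern CANNTG, which includes CACGTG, was found in 6 of 8, against 65.5%. The cyclic AMP response element TGACGTCA was found in 1 of 8, that of Scg2, against 1.59%. A match is a description of the letters in this window only. The promoters of Pam, Pcsk2 and Scg5 are shown because these were the genes with the smallest p-values below, with each CANNTG match in capitals (none in Pcsk2), and that of Scg2 because of its TGACGTCA, in capitals.
Pam promoter, GRCr8 chr9:105570118-105570367, plus strand: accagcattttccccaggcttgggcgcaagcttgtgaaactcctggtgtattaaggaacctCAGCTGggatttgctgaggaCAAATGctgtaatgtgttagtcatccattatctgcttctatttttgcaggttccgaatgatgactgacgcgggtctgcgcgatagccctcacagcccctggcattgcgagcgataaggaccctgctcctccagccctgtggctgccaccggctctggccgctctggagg
Pcsk2 promoter, GRCr8 chr3:151333688-151333937, plus strand: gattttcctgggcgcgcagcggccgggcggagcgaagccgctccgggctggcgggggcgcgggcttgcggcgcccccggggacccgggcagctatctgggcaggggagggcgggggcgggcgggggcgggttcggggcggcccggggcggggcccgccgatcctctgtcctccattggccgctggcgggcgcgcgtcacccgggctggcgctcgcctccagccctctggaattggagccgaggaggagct
Scg5 promoter, GRCr8 chr3:121042796-121043045, minus strand: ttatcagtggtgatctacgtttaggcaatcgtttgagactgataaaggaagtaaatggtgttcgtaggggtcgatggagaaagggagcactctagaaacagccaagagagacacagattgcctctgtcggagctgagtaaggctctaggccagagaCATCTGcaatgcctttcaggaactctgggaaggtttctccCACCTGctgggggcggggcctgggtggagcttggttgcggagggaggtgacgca
Scg2 promoter, GRCr8 chr9:88256867-88257116, minus strand: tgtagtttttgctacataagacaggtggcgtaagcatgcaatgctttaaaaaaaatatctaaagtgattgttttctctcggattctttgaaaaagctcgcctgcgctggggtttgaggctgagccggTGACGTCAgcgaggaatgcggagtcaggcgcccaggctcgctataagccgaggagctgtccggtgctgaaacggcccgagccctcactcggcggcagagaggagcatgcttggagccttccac

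The TGACGTCA of Scg2 began 123 bases before the annotated start. The matches in Pam began 189 and 169 bases before it, and those in Scg5 94 and 54 bases before it. The Pcsk2 window was rich in G and C, at 79.6%, against 55.2% in Pam and 53.2% in Scg5.

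Signals are given as log2 of the processed signal relative to the array's 75th percentile, so that 0 is the signal of a probe at that percentile. Levels of different probes cannot be set against each other, because each probe binds with its own efficiency. The 75th percentile was 590 and 666 signal units on the MAX vector arrays and 701 and 611 on the empty vector arrays, and the share of probes well above background ran from 64.5% to 71.6%. Of the arrays, MAX vector replicate 1 was on a slide of its own, and it had the lowest share of probes well above background. The Max probe itself was well above background on 0 of the 4 arrays and does not check the labels, since its place relative to the plasmid's sequence is not known here. Of 15 chromaffin cell markers, Chga and Chgb among them, 12 had a probe and were tested, and 10 were well above background on all 4 arrays. Of the 12, 9 had a negative log2 fold change (median -0.28), as did 13573 of all 25356 genes tested (median -0.02). Among the 12, 2 passed higher (Th and Npy), beside 0.576% of all genes, and 1 passed lower (Ddc), beside 0.264%. Th, the gene of tyrosine hydroxylase, was 4.42-fold higher with the MAX vector (adjusted p = 0.0203, limma), and Ddc, the gene of the next enzyme of catecholamine synthesis, had -1.08 ± 0.08 (adjusted p = 0.0391). No gene of the whole table passed with no filter on dim probes, with the replicate or the crossed block, or without either empty vector array, so these calls are lost there. Of the adrenal cortex markers, Star, Cyp11a1 and Hsd3b1 were well above background on all 4 arrays and 0 of the 3 passed, with 0.07 ± 0.16, 0.50 ± 0.15 and 0.72 ± 0.66, while Cyp11b1, Cyp11b2 and Cyp21a1 were well above background on 0 of 4 arrays.

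Of the 10 genes, 8 were tested and 0 passed an adjusted p of 0.05 in limma, where 0.84% of all 25356 genes tested did (213 genes). Prior to adjustment, 3 of the 8 had a p under 0.05, a share to be read against 16.1% of all genes. These were Pcsk2 and Pam, higher with the MAX vector, and Scg5, lower. The arrays of the groups did not overlap for the same 3 of 8 genes, while they did not overlap for 50.2% of all genes. With normexp, too, 0 of the 8 passed, where 3.15% of all genes did. None (0 of 8) had an absolute log2 fold change of at least 1, as 3.42% of all genes had. The 8 genes had a median log2 fold change of 0.12, beside -0.02 over all genes tested. Scg3 and Pcsk1 were not tested, because none of their probes was well above background on any array. Scg2 passed the filter with 1 array of each group, and the other 7 were well above background on all 4 arrays by at least 1 probe.

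**Figure D1:**
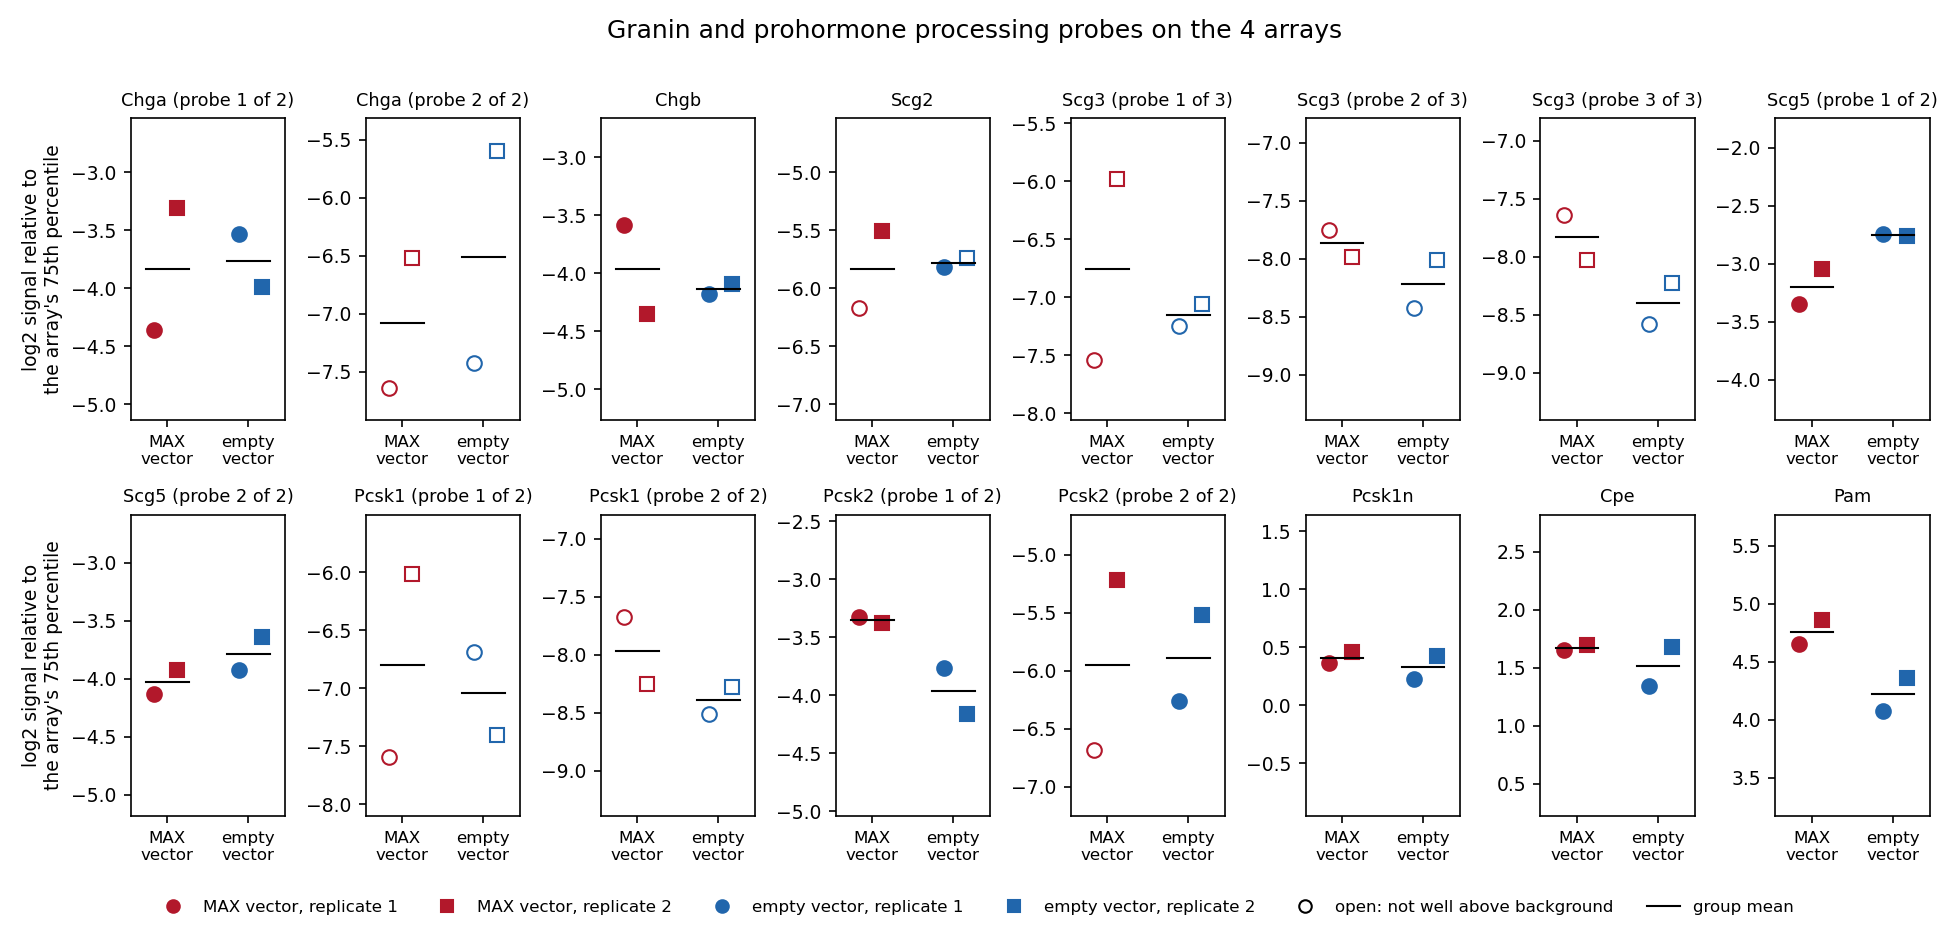
Log2 signal of each of the 16 probes relative to the array's 75th percentile (y axis, in every panel the same span around another centre) on the 2 MAX vector arrays (red, left) and the 2 empty vector arrays (blue, right); lines are group means and open symbols are signals not well above background. Among probes well above background the groups are apart for the brighter probe of Scg5, the brighter probe of Pcsk2 and Pam, and every point of the Scg3 and Pcsk1 probes is open.

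The granins proper, Chga and Chgb, did not differ detectably between the lines, and their MAX vector arrays lay on both sides of the empty vector arrays. Chga encodes chromogranin A, the precursor of peptides such as vasostatin and catestatin and a classical blood marker of pheochromocytoma. Its brighter probe read -4.36 and -3.31 on the MAX vector arrays, against -3.53 and -3.99 on the empty vector arrays. The groups thus overlapped, and the MAX vector arrays held both the lowest and the highest value. The mean was -3.84 ± 0.74 with the MAX vector and -3.76 ± 0.32 with the empty vector (SD, n = 2 each), and the log2 fold change was -0.07 ± 0.42 (SE; adjusted p = 0.947). The 95% interval of the difference ran from -1.24 to 1.09, so a change of 2-fold either way lay within it. A second Chga probe was well above background on 0 of 4 arrays.

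Chgb encodes chromogranin B, the second abundant granin of chromaffin granules. It read -3.58 and -4.35 on the MAX vector arrays, against -4.18 and -4.09 on the empty vector arrays. Again the MAX vector arrays enclosed the empty vector arrays, but with the replicates the other way round from Chga, since replicate 1 was the lower one for Chga and the higher one for Chgb. The log2 fold change was 0.17 ± 0.29 (adjusted p = 0.803), with a 95% interval from -0.63 to 0.97. Without MAX vector replicate 1, which is also the comparison within the slide shared by the other 3 arrays, Chga had 0.45 and Chgb -0.21, and neither passed.

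Scg2 encodes secretogranin II, the precursor of the peptide secretoneurin. It was near background, at -6.17 and -5.50 on the MAX vector arrays, against -5.82 and -5.74 on the empty vector arrays. Only 1 array of each group was well above background, and the groups overlapped. Its log2 fold change of -0.06 ± 0.25 (adjusted p = 0.932; 95% interval -0.76 to 0.65) rests in part on signal near background, and it was 0.28 without MAX vector replicate 1.

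Scg3 encodes secretogranin III, which is known to hold chromogranin A at the cholesterol-rich granule membrane. None of its 3 probes was well above background on any array. Their processed signals ran from 2.55 to 10.6 units on the MAX vector arrays and from 1.84 to 4.62 units on the empty vector arrays. The lowest signals of any probe well above background were 11.7 and 10.1 units on the MAX vector arrays and 7.57 and 9.11 units on the empty vector arrays. No fold is given for Scg3, and Scg3 was not detectable by these probes in either line.

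Scg5 encodes 7B2, the chaperone that pro-PC2 needs to mature into an active convertase. Its brighter probe read -3.35 and -3.05 on the MAX vector arrays, against -2.74 and -2.76 on the empty vector arrays. Both MAX vector arrays were below both empty vector arrays, as they were for 26% of all genes. The log2 fold change was -0.45 ± 0.14 (unadjusted p = 0.0318, adjusted p = 0.262; 95% interval -0.83 to -0.06). The second probe of Scg5 read -4.13 and -3.92 on the MAX vector arrays, against -3.93 and -3.64 on the empty vector arrays. It pointed the same way with a smaller difference, -0.24 ± 0.15 (adjusted p = 0.498 among all probes), and its groups overlapped narrowly. The brighter probe's difference was -0.29 without MAX vector replicate 1 and -0.18 with normexp, an alternative background correction run with an offset of 50 units.

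Pcsk2 encodes the convertase PC2, the partner of 7B2. Its brighter probe read -3.32 and -3.38 on the MAX vector arrays, against -3.76 and -4.16 on the empty vector arrays. Both MAX vector arrays were above both empty vector arrays, as they were for 24.2% of all genes. The log2 fold change was 0.61 ± 0.17, a 1.53-fold difference that did not pass (unadjusted p = 0.0223, adjusted p = 0.233; 95% interval 0.14 to 1.08). The other Pcsk2 probe did not show this difference, but its SE was too large to tell the readings of the probes apart. It read -6.69 and -5.22 on the MAX vector arrays, against -6.26 and -5.52 on the empty vector arrays, where MAX vector replicate 1 was not well above background, and had a log2 fold change of -0.06 ± 0.59. The mean of both probes differed by 0.27 ± 0.27 (adjusted p = 0.66), and the brighter probe by 0.31 with normexp. The difference in Pcsk2 is therefore a reading of 1 of its 2 probes. Over the 4 arrays, with each gene centred on its own mean, the genes with a symbol that lay nearest to this probe were Il1rl1, Il18 and Kcnk2, within 0.04, 0.05 and 0.09 on every array. This is a description over 4 values only.

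Pcsk1 encodes PC1/3, the convertase that acts early in the granule pathway. Neither of its probes was well above background on any array, with processed signals of 2.18 to 10.3 units on the MAX vector arrays and 1.92 to 6.79 units on the empty vector arrays. No fold is given, and Pcsk1 was not detectable by these probes in either line. Pcsk1n encodes proSAAS, whose C-terminal part inhibits PC1/3. In contrast to its target, it was well above background on all 4 arrays, at 0.36 and 0.46 on the MAX vector arrays and 0.23 and 0.42 on the empty vector arrays. The groups overlapped, with a log2 fold change of 0.09 ± 0.11 (adjusted p = 0.749). The 95% interval, from -0.23 to 0.40, held no change beyond 1.32-fold up or 1.18-fold down.

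Cpe encodes carboxypeptidase E. It read 1.65 and 1.69 on the MAX vector arrays, against 1.35 and 1.68 on the empty vector arrays. The empty vector arrays lay further apart than the MAX vector arrays, and the groups overlapped. The log2 fold change was 0.16 ± 0.15 (adjusted p = 0.638; 95% interval -0.25 to 0.57), so that no change beyond 1.48-fold up or 1.19-fold down lay within the interval.

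Pam encodes peptidylglycine alpha-amidating monooxygenase, the only enzyme known to make amidated peptides in mammals. It read 4.65 and 4.86 on the MAX vector arrays, against 4.08 and 4.36 on the empty vector arrays. Both MAX vector arrays were above both empty vector arrays. The mean was 4.76 ± 0.15 with the MAX vector and 4.22 ± 0.20 with the empty vector (SD, n = 2 each). The log2 fold change of 0.54 ± 0.15, a 1.45-fold difference, did not pass (unadjusted p = 0.0242, adjusted p = 0.239; 95% interval 0.12 to 0.96). It lay just above 0.50, the 95th percentile of all genes. With normexp it was 0.51 (adjusted p = 0.0667). Within the slide shared by 3 arrays it was 0.64. Over all 16 alternatives it ran from 0.39 to 0.68 with adjusted p-values from 0.0667 to 0.755, and it passed in 0 of them. Several of these alternatives leave the fold itself unchanged, and the slide block and the fit without MAX vector replicate 1 are the same fit, so they are not independent checks of its sign.

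**Figure D2:**
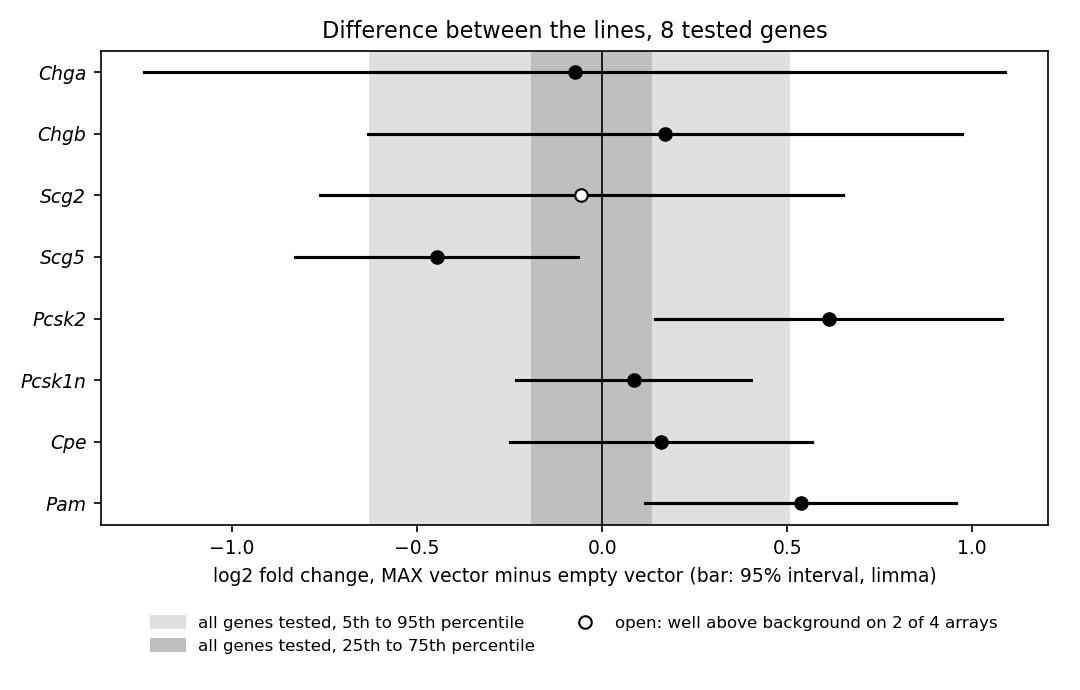
Log2 fold change of the 8 tested genes, MAX vector minus empty vector (x axis), with 95% intervals from limma; grey bands mark the 5th to 95th and the 25th to 75th percentile of all genes tested. The intervals of Scg5, Pcsk2 and Pam leave out 0 prior to adjustment, Chga has the widest interval (-1.24 to 1.09) and Pcsk1n the narrowest (-0.23 to 0.40).

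Ordered by role, the granins Chga, Chgb and Scg2 had intervals wide enough to hold changes of over 1.5-fold in both directions. The convertase inhibitor Pcsk1n and the trimming enzyme Cpe were bounded within 1.5-fold. The chaperone Scg5 and its client Pcsk2 had differences of -0.45 and 0.61 by their brighter probes, each short of the adjusted threshold, as was that of the amidating enzyme Pam. The second probes of both genes gave smaller differences, -0.24 ± 0.15 for Scg5 and -0.06 ± 0.59 for Pcsk2. That of Pcsk2 was too imprecise to be set against 0.61.

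**Figure D3:**
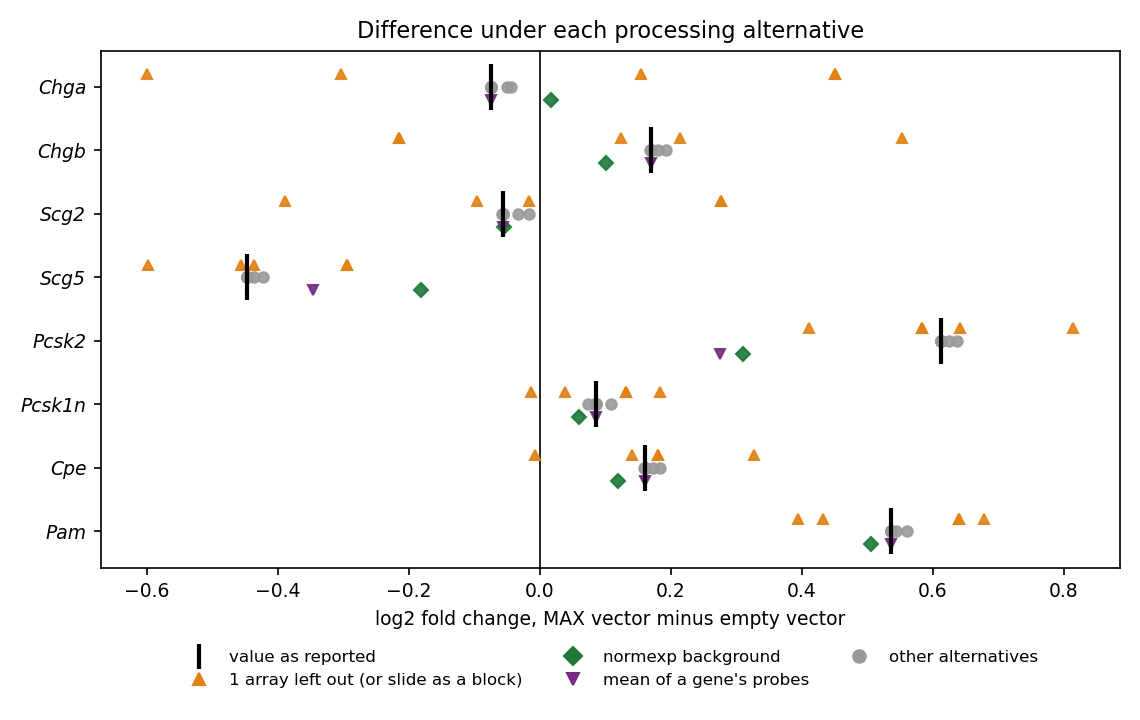
Log2 fold change of each tested gene (x axis) as reported (black bar) and under the 16 alternatives, 15 for Scg2 (symbols by kind of alternative). Scg5 stays below 0, Pcsk2 and Pam stay above 0, and Chga, Chgb, Scg2, Pcsk1n and Cpe have values on both sides.

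The neighbouring steps of the pathway were read from 3 lists with 80 genes, of which 64 had a probe and 50 were tested. Of the 50, 1 passed higher, beside 0.576% of all genes, and 0 passed lower, beside 0.264%. With an unadjusted p under 0.05 there were 6 higher and 4 lower, beside 7.93% and 8.21% of all genes. The median of the 50 was -0.00, beside -0.02 over all genes.

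Among 17 tested genes of the list of other granins, convertases and peptide-trimming enzymes, 0 passed and the median was 0.12. Vgf, a further granin-like peptide precursor known as a target of nerve growth factor in PC12, read 4.55 and 4.32 on the MAX vector arrays, against 5.10 and 4.89 on the empty vector arrays. All MAX vector values were below, and the log2 fold change was -0.56 ± 0.14 (adjusted p = 0.206). With normexp it was -0.67 and passed (adjusted p = 0.0159). Furin, the convertase of the trans-Golgi network, had 0.39 ± 0.11 (adjusted p = 0.237). Ctsl, which encodes cathepsin L, a protease that can also cleave prohormones in granules, had 0.47 ± 0.10 (adjusted p = 0.173). It passed with normexp (0.53, adjusted p = 0.0408) and with an intensity trend in limma (adjusted p = 0.0394). The other convertases tested, Pcsk4 and Pcsk7, had 0.20 ± 0.11 and -0.12 ± 0.12.

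Among 22 tested genes of the granule membrane and granule biogenesis list, 0 passed and the median was -0.00. Rab27b, a GTPase gene of granule docking, had 0.52 ± 0.11 (adjusted p = 0.175). Pick1, whose product helps granules bud, had 0.35 ± 0.09 (adjusted p = 0.211), and Rab3a, another granule GTPase gene, had 0.30 ± 0.10 (adjusted p = 0.272). Ptprn, which encodes the granule membrane protein IA-2, had -0.04 ± 0.12.

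Among 11 tested peptide precursor genes, the substrates of this machinery, 1 passed and the median was -0.22. Npy, which encodes neuropeptide Y, an amidated peptide, was 9.05-fold higher with the MAX vector (adjusted p = 0.0197), at -0.96 and -1.20 on the MAX vector arrays, against -4.35 and -4.16 on the empty vector arrays. Npy did not pass with no filter on dim probes, with any block, without MAX vector replicate 1 or without either empty vector array. Penk, which encodes proenkephalin, had -0.68 ± 0.14 (adjusted p = 0.158) and Adm, which encodes adrenomedullin, another amidated peptide, had -0.74 ± 0.09 (adjusted p = 0.073). With normexp both passed, lower (-0.54 and -0.73, adjusted p = 0.0356 and 0.00414). Both also passed, lower, with an intensity trend in limma (adjusted p = 0.0378 and 0.00694). Adm passed, too, with signal well above background required on all 4 arrays (adjusted p = 0.0379). Nppb, the precursor gene of brain natriuretic peptide, named after its values were seen, read -5.17 and -5.74 on the MAX vector arrays, against -2.54 and -2.93 on the empty vector arrays. Its log2 fold change was -2.72 ± 0.26 (adjusted p = 0.0521), and 1 of its 2 MAX vector signals was not well above background. It passed, lower, with normexp (-0.89), with median scaling, with every probe tested by itself and with an intensity trend.

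**Figure D4:**
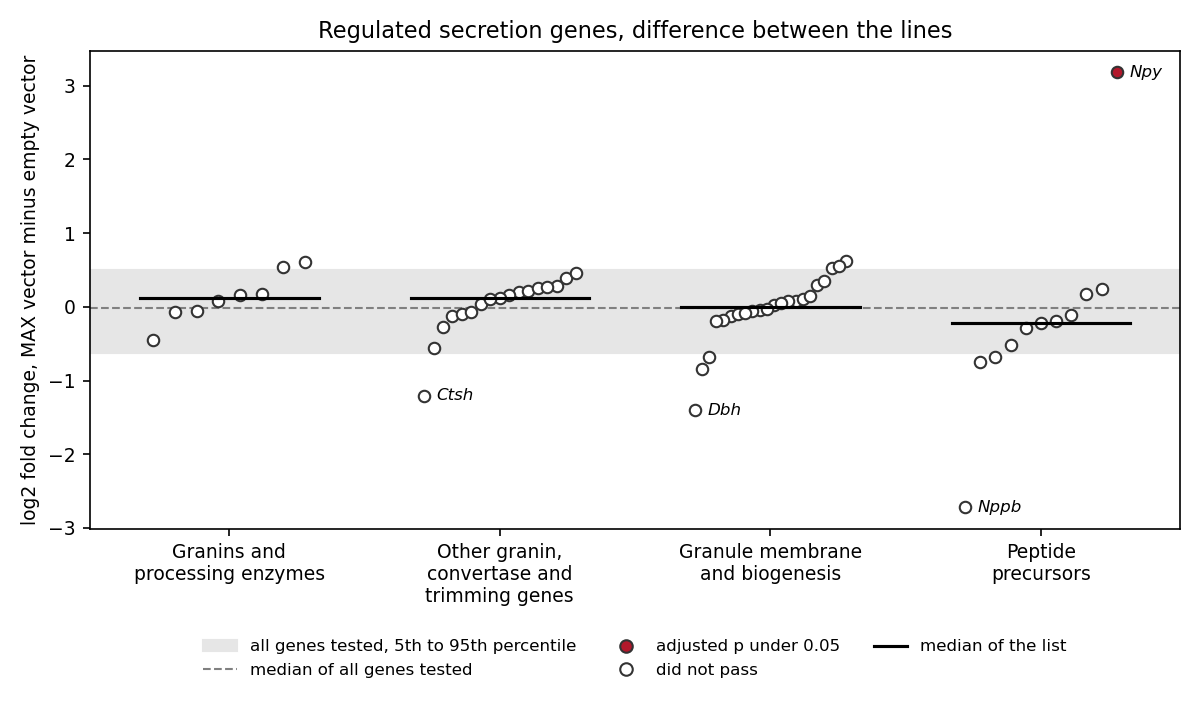
Log2 fold change, MAX vector minus empty vector (y axis), of the tested genes of the granin and processing set and of 3 neighbouring lists, with each list's median (black line) and the 5th to 95th percentile of all genes (grey). Npy (3.18) is the only filled point, the only gene here with an adjusted p under 0.05, while the granin and processing genes lie between -0.45 and 0.61.

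Markers of other cell types were read beside these values. Of 6 macrophage markers, 5 had a probe and 4 were tested, of which 0 passed. The summed probe signal of the 5 was 9.09 and 8.83 times the 75th percentile on the MAX vector arrays. On the empty vector arrays it was 4.86 and 5.60 times. Aif1, among the 5, was at background throughout. Most of the macrophage sum was signal of the Cd14 probe (0.82 ± 0.12), which does not rank its transcript above the others. The probes of the other tested markers gave far less signal, with 1.32 ± 0.15 for Lyz2, 0.43 ± 0.30 for Cd68 and 0.06 ± 0.53 for Csf1r. Of 7 fibroblast markers 5 were tested and 0 passed, with summed signals of 157 and 164 times with the MAX vector and 143 and 156 times with the empty vector. Most of that sum was signal of the Col3a1 probe (0.07 ± 0.10), while Lum had -1.19 ± 0.27 and Dcn 0.75 ± 0.13 (adjusted p = 0.183 and 0.126). The beta cell marker Pdx1, the endothelial marker Pecam1 and the Schwann cell marker S100b were each at background throughout. The part of these markers in the differences above was not tested. In bulk RNA of this kind, fewer cells with a transcript and less transcript per cell cannot be told apart.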

How the data were processed

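Expression was measured in 4 samples of total RNA on one-colour Agilent rat arrays. The authors deposited scanner files of spot intensity, written per the file headers by Feature Extraction 10.7.3.1 (10.7 per the submitters' processing notes), with background subtracted and trends removed inside each array, but no scaling across arrays. A table of log2 values was also deposited by the authors; differences between its columns matched those used here but for constants of at most 0.0057 (Pearson r = 1), and the baseline on which each probe is centred stays unknown. Its column medians were -0.0054 and -0.0065 for the MAX vector and -0.0332 and -0.0107 for the empty vector.

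Control spots and outlier spots were dropped, spots of 1 probe were averaged as log2 processed signal, and the 75th percentile over probes was subtracted on each array. A probe was tested where at least 2 of the 4 arrays read it well above background (28564 probes), and the probe with the highest mean stood for its gene (25356 genes). Of these, 6316 had a symbol. The others were counted by the array's own identifier, so that a gene may be counted more than once among all genes. The test was limma 3.58.1 under R 4.3.3, with lmFit and eBayes (3.94 total degrees of freedom), and Benjamini-Hochberg adjustment over all genes. Intervals are limma's 95% intervals of single genes and are not adjusted. Symbols came from RefSeq accessions matched to assembly GRCr8 (26.3% of probes). The files' annotation is of build rn4, so no gene coordinates from other builds were joined to it, and the promoters carry their own build.

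Genes and lists were chosen with earlier results of these data known. The rule for named genes took every one of the 10 genes with every probe, and of each list the genes that passed and up to 4 with an unadjusted p under 0.05 and signal well above background on every array; Nppb, Ptprn, Pcsk4 and Pcsk7 were named after their values were seen. The number of arrays limits the precision.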

Additional observations from a re-analysis of the deposited data

How the results depend on the processing

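Under the 16 alternatives tried, 0 of the tested genes among the 10 passed an adjusted p of 0.05 in any of them (15 alternatives for Scg2). Signs turned for Chga with normexp (0.0172), with the slide as a block and without MAX vector replicate 1 (0.45 each) and without empty vector replicate 1 (0.16), for Chgb (-0.21 each) and Scg2 (0.28 each) with the slide as a block and without MAX vector replicate 1, and for Pcsk1n (-0.0136) and Cpe (-0.0068) without empty vector replicate 1; the cause was not tested. Over the 4 fits that each leave out 1 array, Chga ran from -0.60 to 0.45, Chgb from -0.21 to 0.55, Scg2 from -0.39 to 0.28, Scg5 from -0.60 to -0.29, Pcsk2 from 0.41 to 0.81, Pcsk1n from -0.01 to 0.18, Cpe from -0.01 to 0.33 and Pam from 0.39 to 0.68.

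Of the 50 genes of the neighbouring lists, 1 passed higher and 0 lower as reported. With normexp 2 passed higher and 4 lower, and with an intensity trend 2 higher and 3 lower. With median scaling, with every probe tested by itself and with signal well above background required on all 4 arrays, 1 passed lower. With no filter, with the slide, the replicate number or the crossed numbers as a block, 0 passed higher, and over the fits that leave out 1 array 0 to 1 did. Over all genes, 213 passed as reported in limma, 799 with normexp, 541 with median scaling, 955 with an intensity trend, 515 with signal on all 4 arrays, 8 with the slide as a block and 144 without MAX vector replicate 2. None passed (0) with no filter, with the replicate block, with the crossed block or without empty vector replicate 1 or 2, where 4033, 3885, 3182, 1963 and 2456 genes had an unadjusted p under 0.05. Where 1 array of a group is left out, the lone array is assumed to vary like the other group.

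The replicate numbers were not taken to pair the arrays, since the labels do not say which number stands for which passage. Deviations of same-numbered arrays from their group means correlated at -0.018. This cannot settle whether arrays of the same passage form pairs, because the numbers may not match the passages and MAX vector replicate 1 had its own slide. With the replicate block, Scg5 had -0.45 (adjusted p = 0.318), Pcsk2 0.61 (0.256) and Pam 0.54 (0.218). Normexp on the mean signal was not run as planned; it used the median signal, a choice made after seeing the data, as was the block of crossed numbers. Dim probes limit Chga, Chgb and Scg2.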

Other observations

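The MAX vector arrays differed from each other for several dim probes, in both directions. Replicate 2 read higher than replicate 1 by 1.05 for Chga's brighter probe, which was well above background on both. It also read higher for Chga's second probe by 1.11, Scg2 by 0.67, 1 of the Scg3 probes by 1.56, the brighter Pcsk1 probe by 1.58 and the dimmer Pcsk2 probe by 1.47. Replicate 1 read higher for Chgb, by 0.77, and for 3 probes at background, by 0.23 and 0.39 for the other Scg3 probes and by 0.58 for the second Pcsk1 probe. The probes at the array's 75th percentile or above it differed by 0.09 for Pcsk1n, 0.04 for Cpe and 0.21 for Pam. Some dimmer probes were also close, with 0.06 for the brighter Pcsk2 probe and 0.30 and 0.21 for the Scg5 probes. Between the empty vector arrays, Chga's brighter probe differed by 0.46, its second probe by 1.83 and Chgb by 0.09. The median over all probes tested was 0.15 between the MAX vector arrays and 0.12 between the empty vector arrays.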
